A study of Mus musculus with 24 samples.

Results

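The transcripts described here are those of repeats in the input RNA of MeRIP-seq (immunoprecipitation of methylated RNA followed by sequencing), compared between *Mettl14* KO and WT26 mouse embryonic stem (ES) cells. The members are all rows of the count table that carry a repeat name, family and class from RepeatMasker: 1153 of its 49090 features, the other 47937 being genes. Each row sums the reads of all copies of a repeat subfamily in the genome, so a row names a kind of sequence and not a locus. Of the 1153 repeats 1085 held enough reads to be tested, and 68 did not: 16 of those had no read in the 4 libraries and none had more than 15 in any. WT26 was the wild-type line. The *Mettl14* KO was a single clone derived from it by CRISPR/Cas9 with guide RNAs against *Mettl3* and *Mettl14*, in which a frameshift truncates *Mettl14* while the methyltransferase domain of *Mettl3* is intact. Both were grown without feeder cells, on gelatin, in medium with serum replacement and LIF, and 2 biological replicates of nuclear, rRNA-depleted RNA were sequenced from each. A second pair of lines entered the same fit and is given for reference: RBC cells, which carry BirA-V5 at *Rosa26* and Cre-ERT2, and a *Mettl3* KO clone made from them, again with 2 replicates each.

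METTL14 is the RNA-binding partner of METTL3, the catalytic subunit of the complex that methylates adenosine in RNA to m6A. Repeats that ES cells transcribe include satellites, the tandem arrays of centromeres and pericentromeric heterochromatin, and retrotransposons, which move through an RNA copy. The latter comprise LINEs such as L1, which encode their own machinery, SINEs such as B1 and B2, which borrow it, and the LTR elements or endogenous retroviruses (ERVs), whose internal part (rows ending in -int) lies between long terminal repeats. In ES cells most young LTR elements are held silent by TRIM28 and the histone methyltransferase SETDB1. Bulk RNA cannot tell fewer cells that transcribe a repeat from less RNA per cell.

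The 4 libraries held 9394163 to 22366463 reads over genes and repeats, and repeats took 35.7% to 39.5% of them. Levels below are normalized counts, that is reads divided by a size factor that was computed from genes alone, so that a shift of repeats as a whole stays visible. A repeat is said to be higher or lower where its adjusted p was at most 0.05 (edgeR, Benjamini-Hochberg over all 20299 tested features). Same-numbered replicates of the 4 lines deviated together, so results of a fit with the replicate number as a block are given beside those of the first fit where their counts differ. Transcripts of *Mettl14* itself stood at 202 and 231 normalized counts in WT26 and at 217 and 186 in *Mettl14* KO, with overlapping groups. A frameshift need not lower the transcript, so this level does not check the genotype. Of 12 pluripotency genes 3 were lower (*Pou5f1*, *Sox2* and *Lin28a*), and 7 with the block, which added *Nanog*, *Klf2*, *Klf4* and *Tfcp2l1*, where 4.64% and 7.38% of all features were lower. The summed level of the 12 was 20239 to 21125 in WT26 and 14268 to 16806 in *Mettl14* KO. The part of this difference in the values of repeats was not tested.

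Few repeats differed between *Mettl14* KO and WT26. Of the 1085 tested repeats 9 were higher in *Mettl14* KO, where 2.83% of all features were called higher, and 16 were lower, where 4.64% of all features were. Together that is 2.30% of tested repeats, beside 7.76% of tested genes. Repeat rows and genes differ in abundance, and these shares were not matched for it. With a log2 fold change above 1 in size as a second condition, 5 repeats were higher (1.78% of all features) and 4 were lower (2.15% of all features). When replicate number entered as a block, 19 were higher (4.88% of all features) and 36 were lower (7.38% of all features), and all 25 repeats of the first fit were among them. Size factors computed from repeats gave 6 higher and 34 lower, a share of 15% higher against 36% in the first fit. The lower repeats outnumbered the higher ones in each of these counts except that with the fold limit. At an unadjusted p under 0.05 there were 111 of the 1085 repeats. The share of all features at that limit is not given here, so this count is not read as a result.

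**Figure D1:**
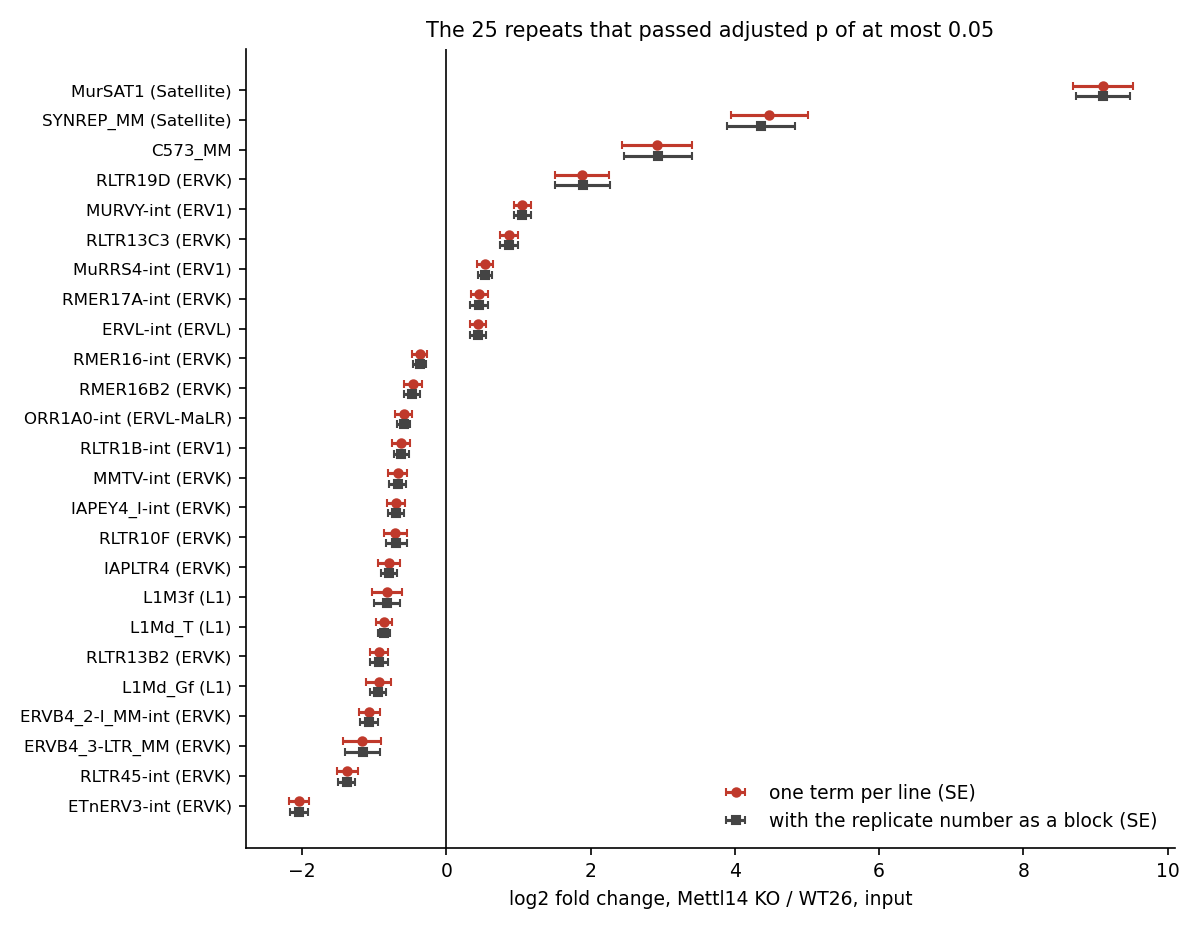
Log2 fold change of *Mettl14* KO over WT26 in input RNA for the 25 repeats that passed the test, with its SE, from the fit with one term per line (circles) and from the fit with the replicate number as a block (squares). Both fits gave the same direction for each repeat, from 9.10 for MurSAT1 to -2.04 for ETnERV3-int.

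Of the 25 called repeats 9 kept their call when any one of the 4 libraries was left out. These were MurSAT1, SYNREP_MM, MURVY-int and RLTR13C3 among the higher ones, and ETnERV3-int, RLTR45-int, ERVB4_2-I_MM-int, RLTR13B2 and L1Md_T among the lower ones. Without *Mettl14* KO replicate 1 there remained 11 of the 25 calls, without *Mettl14* KO replicate 2 18, without WT26 replicate 1 10 and without WT26 replicate 2 16. Calls among genes also fell in number in each of these 4 fits, so the loss of calls was not particular to repeats. The sign of each of the 25 changes was the same in every alternative that gave it a value. The filter of at least 10 counts in each library gave none for MurSAT1, C573_MM and RLTR19D. ERVL-int, RMER17A-int, RMER16-int and RMER16B2 lost their call whichever library was left out, with the highest adjusted p at 0.19, 0.22, 0.21 and 0.26.

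Satellites held the strongest rises. MurSAT1, a satellite row, was nearly absent from WT26, with 6 and 1 reads or 3.88 and 1.24 normalized counts, and stood at 1445 and 1935 normalized counts in *Mettl14* KO. It was also low in RBC (61.1 and 27.6) and in *Mettl3* KO (8.07 and 5.2), so that both *Mettl14* KO libraries lay far above the other 6. The log2 fold change was 9.10 ± 0.41 (SE, adjusted p = 3.33e-06). From the summed reads, 3080 against 7, the ratio was 536 with a 95% interval of 260 to 1334, which covers counting error only. The controls themselves were not equal for this row: RBC exceeded WT26 by 3.87 ± 0.55 on the log2 scale (adjusted p = 0.0036).

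SYNREP_MM, which the study includes with the satellites, was the second. It was at 164 and 366 normalized counts in WT26, 209 and 201 in RBC, 99.0 and 80.6 in *Mettl3* KO, and 8976 and 2545 in *Mettl14* KO. The *Mettl14* KO libraries differed 3.53-fold between themselves, yet the lower of them was still well above every other library. Its log2 fold change was 4.48 ± 0.53 (adjusted p = 0.0017), and it ranged from 3.30 to 5.13 when single libraries were left out.

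GSAT_MM, the major satellite of pericentromeric heterochromatin, went the other way. It stood at 1476 and 475 normalized counts in WT26 and at 338 and 251 in *Mettl14* KO, without overlap. In WT26, RBC and *Mettl3* KO replicate 1 was 2.76 to 3.15 times replicate 2 (RBC 1261 and 457, *Mettl3* KO 1368 and 434), while in *Mettl14* KO this ratio was 1.35. With that split inside each line, the difference of -1.72 ± 0.61 on the log2 scale did not pass the test (adjusted p = 0.12), whereas the blocked value of -1.60 ± 0.23 did (adjusted p = 6.91e-04). WT26 replicate 1 weighed most on the size: without it the log2 fold change was -0.68.

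MMSAT4, by far the most abundant satellite row, showed a smaller difference in the same direction. Its levels were 40435 and 32756 normalized counts in WT26 and 26629 and 22550 in *Mettl14* KO, so that the log2 fold change was -0.57 ± 0.17 (adjusted p = 0.060 unblocked and 6.52e-04 blocked). RBC, with 33116 and 24938, and *Mettl3* KO, with 28934 and 23498, overlapped with *Mettl14* KO. The remaining satellites overlapped between the groups. IMPB_01 had a log2 fold change of 0.16 ± 0.13, ZP3AR of -0.01 ± 0.11 and the sparse SUBTEL_sa of 0.61 ± 0.66. (CATTC)n and CENSAT_MC were not tested, with at most 1 read in any of the 4 libraries. So of 7 tested satellites 2 were higher in *Mettl14* KO (2.83% of all features). With the block 2 were higher (4.88% of all features) and 2 lower (7.38% of all features). These moves offset each other only in part in the class total, which was 55384 and 45048 normalized counts in WT26 and 51243 and 40205 in *Mettl14* KO. The log2 ratio of *Mettl14* KO to WT26 for this total was -0.11 in replicate 1 and -0.16 in replicate 2.

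**Figure D2:**
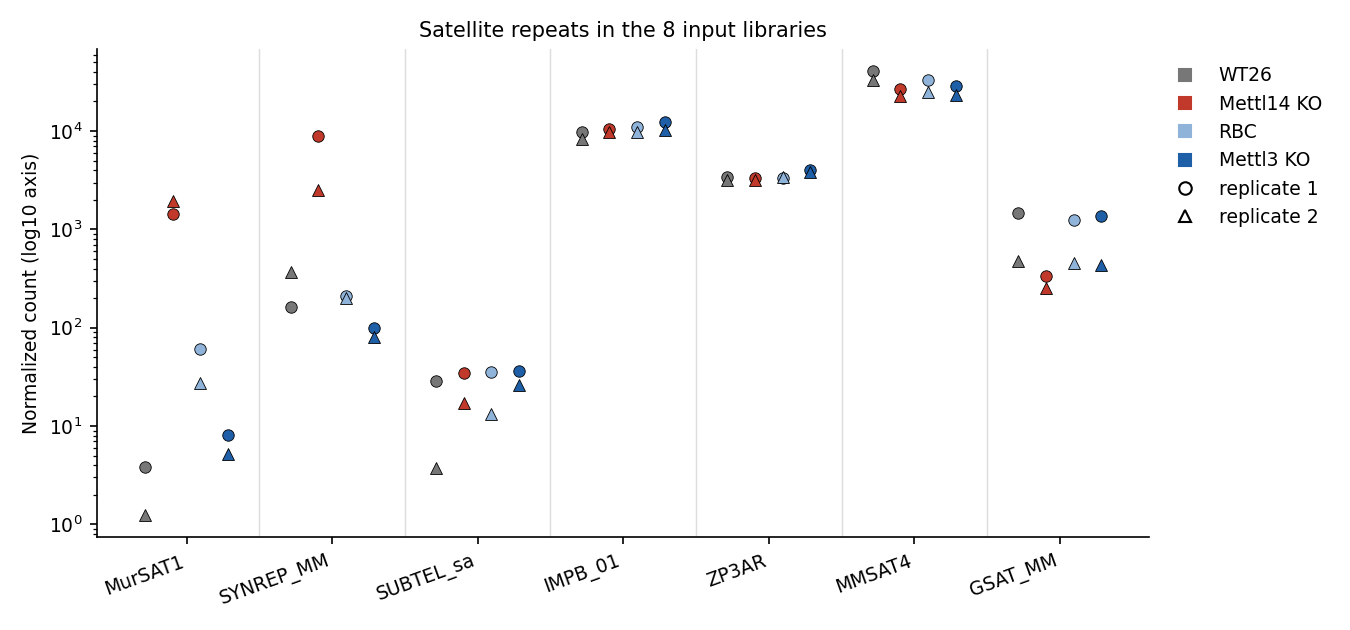
Normalized counts (log10 axis) of the 7 tested satellite repeats in each of the 8 input libraries, coloured by line, with replicate 1 as circles and replicate 2 as triangles. MurSAT1 and SYNREP_MM are high in both *Mettl14* KO libraries only, and GSAT_MM splits by replicate number in the other 3 lines.

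L1 elements are the autonomous LINEs of the mouse, and the L1Md rows are their youngest subfamilies, some of which still transpose. L1Md_T, the most abundant of them, had 148194 and 152241 normalized counts in WT26 and 84317 and 80863 in *Mettl14* KO. This was a log2 fold change of -0.86 ± 0.11 (adjusted p = 0.0022). L1Md_Gf had 9853 and 9052 in WT26 and 5562 and 4294 in *Mettl14* KO (log2 fold change -0.94 ± 0.17, adjusted p = 0.0084), and its call was lost without WT26 replicate 1 (adjusted p = 0.078). In both rows the groups were well apart, and the level in *Mettl14* KO was 1.82-fold and 1.92-fold lower. L1Md_A had 58419 and 66789 in WT26 and 49233 and 45604 in *Mettl14* KO, a log2 fold change of -0.40 ± 0.11 that passed only with the block (adjusted p = 0.057 unblocked and 0.0146 blocked).

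The F subfamilies of L1Md differed less. L1Md_F had a log2 fold change of -0.18 ± 0.13, L1Md_F2 of 0.02 ± 0.10 and L1Md_F3 of -0.00 ± 0.10, and none passed the test. Thus 2 of 6 L1Md rows were lower and the median of the 6 was -0.29, while of the 126 other tested L1 rows 1 was lower, none was higher, and the median was 0.14. With the block 3 of the 6 L1Md rows were lower, and of the 126 others 1 was higher and 2 were lower. Of all features 4.64% were lower in the first fit and 7.38% with the block. The other L1 row that was lower in the first fit was L1M3f, a sparse older subfamily. It had 174 and 202 normalized counts in WT26 and 95.8 and 120 in *Mettl14* KO (log2 fold change -0.82 ± 0.21, adjusted p = 0.039). L1VL1, named by the study, had 4440 and 3631 in WT26 and 4791 and 4038 in *Mettl14* KO, with overlapping groups, and Lx8, one of the 3 most abundant LINE rows, had a log2 fold change of 0.04 ± 0.09.

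Among LTR elements the ERVK family, which holds the IAP and ETn elements, had 3 higher and 11 lower of 276 tested subfamilies, and 6 and 25 with the block. That is 1.09% higher and 3.99% lower in the first fit, below the 2.83% and 4.64% of all features. With the block 4.88% of all features were higher and 7.38% lower. The ERVK share was then below the former and above the latter. The largest fall was in ETnERV3-int, the internal part of an ETn-related ERV, from 5292 and 4103 normalized counts in WT26 to 1166 and 1115 in *Mettl14* KO. This is a log2 fold change of -2.04 ± 0.14 (adjusted p = 1.31e-04), or 4.12-fold lower. WT26 stood apart from all other lines in this row, since RBC had 1062 and 1244 and *Mettl3* KO 878 and 894. RLTR13B2, an ERVK row, had the same arrangement: WT26 had 1474 and 1372, while *Mettl14* KO had 751 and 740, RBC 701 and 820, and *Mettl3* KO 774 and 679. Its log2 fold change was -0.93 ± 0.13 (adjusted p = 0.0030).

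RLTR45-int behaved otherwise, with both controls high and both knockouts low. It fell from 11323 and 12187 normalized counts in WT26 to 3815 and 5280 in *Mettl14* KO, with a log2 fold change of -1.37 ± 0.14 (adjusted p = 0.0012). RBC had 9306 and 9144 and *Mettl3* KO 2999 and 2960. ERVB4_2-I_MM-int had 1603 and 1766 in WT26 and 828 and 781 in *Mettl14* KO (log2 fold change -1.06 ± 0.14, adjusted p = 0.0025), while RBC had 1574 and 1211 and *Mettl3* KO 662 and 653. For these rows the change in *Mettl3* KO against RBC was -1.63 (adjusted p = 1.79e-04) and -1.08 (adjusted p = 0.0016).

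The other ERVK rows that were lower were smaller in size or sparser. ERVB4_3-LTR_MM had 92.4 and 120 normalized counts in WT26 and 40.1 and 56.4 in *Mettl14* KO (log2 fold change -1.17). IAPLTR4, a long terminal repeat of IAP elements, had a log2 fold change of -0.79, IAPEY4_I-int of -0.70, RLTR10F of -0.70, MMTV-int, the internal part of the mouse mammary tumour virus-like elements, of -0.68, RMER16B2 of -0.46 and RMER16-int of -0.37. The 3 higher ones were RLTR19D, RLTR13C3 and RMER17A-int. RLTR13C3 rose from 478 and 410 to 772 and 859 normalized counts (log2 fold change 0.87 ± 0.13, adjusted p = 0.0039). RLTR19D rose from 11.0 and 11.2 to 43.8 and 37.6, and its 81 against 26 reads give a ratio of 3.80 with a 95% counting interval of 2.41 to 6.15. RMER17A-int was near the limit, with a log2 fold change of 0.46 ± 0.12 (adjusted p = 0.044).

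Internal parts of the ERVs best known from ES cells mostly did not pass the test. IAPEz-int, from the intracisternal A particles, had 20334 and 22565 normalized counts in WT26 and 20685 and 22171 in *Mettl14* KO. Its log2 fold change was -0.00 ± 0.12, with overlapping groups. IAPEy-int had 956 and 1145 in WT26 and 1810 and 1252 in *Mettl14* KO, which gave 0.55 ± 0.18 on the log2 scale (adjusted p = 0.094 unblocked and 0.034 blocked). IAP1-MM_I-int had one of 0.43 ± 0.12 (adjusted p = 0.064 unblocked and 0.031 blocked), IAPEY3-int of -0.46 ± 0.15 (adjusted p = 0.095 unblocked and 0.013 blocked) and IAP-d-int of -0.19 ± 0.15.

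Among the ETn elements, MMETn-int had 73023 and 71180 normalized counts in WT26 and 59773 and 57972 in *Mettl14* KO. This difference of -0.29 ± 0.10 on the log2 scale passed only with the block (adjusted p = 0.12 unblocked and 0.031 blocked), and so did that of ETnERV2-int, -0.39 ± 0.12 (adjusted p = 0.068 unblocked and 0.029 blocked). ETnERV-int had a log2 fold change of 0.10 ± 0.11. RNERVK23-int, named by the study, had 167 and 179 in WT26 and 102 and 152 in *Mettl14* KO (log2 fold change -0.47 ± 0.21, adjusted p = 0.21). IAPEY5_I-int could not be read between the lines, because replicate 1 exceeded replicate 2 by 4.18 to 18.0 times within each of the 4 lines (WT26 290 and 69.4, *Mettl14* KO 353 and 30.7).

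**Figure D3:**
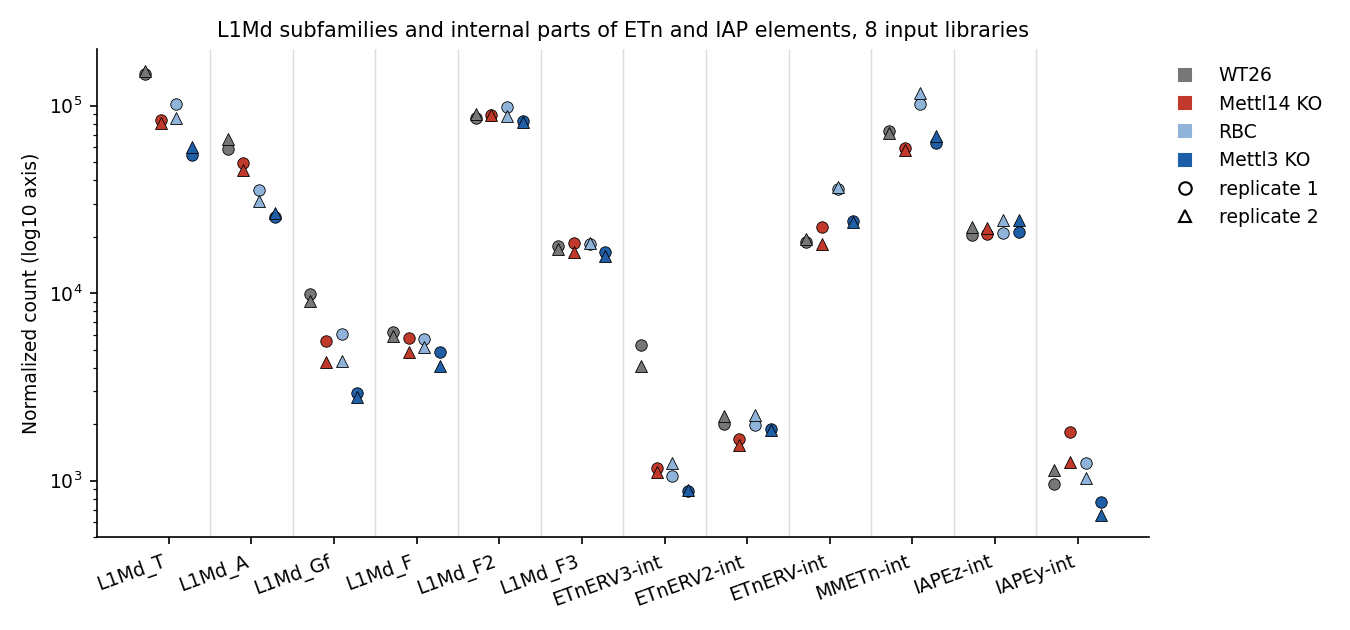
Normalized counts (log10 axis) of 6 L1Md subfamilies and of 6 internal parts of ETn and IAP elements in the 8 input libraries, coloured by line, with replicate 1 as circles and replicate 2 as triangles. L1Md_T, L1Md_Gf and ETnERV3-int are lower in *Mettl14* KO than in WT26, and ETnERV3-int in *Mettl14* KO, 1166 and 1115, is near RBC, 1062 and 1244.

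The ERV1 family, the gammaretrovirus-like elements, had 2 higher and 1 lower of 129 tested subfamilies, and 3 and 3 with the block. That is 1.55% higher and 0.78% lower in the first fit, below the 2.83% and 4.64% of all features. MURVY-int, from a murine retroviral repeat of the Y chromosome, rose from 467 and 485 to 1033 and 941 normalized counts. Its log2 fold change was 1.06 ± 0.12 (adjusted p = 0.0014). The other lines were higher still, at 1392 and 1522 for RBC and 2195 and 1965 for *Mettl3* KO. Of 6 Y-linked genes, 3 were higher in *Mettl14* KO than in WT26 (*Usp9y*, *Kdm5d* and *Zfy1*) and with the block 5. Of all features 2.83% and 4.88% were higher. These genes were chosen after the values were seen, so their counts describe and do not test. *Kdm5d*, with the largest log2 fold change of the 6, had 25.2 and 62.0 normalized counts in WT26 and 502 and 393 in *Mettl14* KO. RBC had 2.78 and 13.3, and *Mettl3* KO had 23.5 and 31.2. *Ddx3y*, *Eif2s3y* and *Uty* were not called in the first fit and were well above the *Kdm5d* level in WT26. *Uty*, for example, had 663 and 750 in WT26 and 1245 and 1744 in *Mettl14* KO. A part of the Y chromosome in the values of MURVY-int was not tested.

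MuRRS4-int, also of ERV1, rose from 1697 and 1673 normalized counts in WT26 to 2583 and 2314 in *Mettl14* KO (log2 fold change 0.54 ± 0.11, adjusted p = 0.018). This call was lost without *Mettl14* KO replicate 1 and without either WT26 replicate, with adjusted p up to 0.12. MuRRS-int had a log2 fold change of 0.37 ± 0.14 (adjusted p = 0.13), MuLV-int of -0.13 ± 0.16 and RLTR4_MM-int of -0.05 ± 0.10. RLTR1B-int was lower, with 5524 and 5224 in WT26 and 3373 and 3597 in *Mettl14* KO (log2 fold change -0.63 ± 0.13, adjusted p = 0.016).

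In ERVL, which includes MERVL, the element of two-cell-like cells, 1 of 106 tested subfamilies was called, and 3 with the block, all higher. Of all features 2.83% and 4.88% were higher. The one in the first fit was ERVL-int, with 536 and 517 normalized counts in WT26 and 706 and 726 in *Mettl14* KO (log2 fold change 0.44 ± 0.12, adjusted p = 0.043). MERVL-int itself had 12790 and 16337 in WT26 and 12699 and 16421 in *Mettl14* KO, a log2 fold change of -0.00 ± 0.17, and its long terminal repeat MT2_Mm one of 0.09 ± 0.13. MERVL_2A-int had a log2 fold change of 0.10 ± 0.10. Of 7 tested two-cell-like genes 1, *Zscan4f*, was lower in *Mettl14* KO, and with the block *Zscan4c* as well, where 4.64% and 7.38% of all features were lower. In ERVL-MaLR 1 of 101 was called, as lower, where 4.64% of all features were lower. This was ORR1A0-int, which fell from 5193 and 4615 to 3332 and 3180 (log2 fold change -0.59 ± 0.12, adjusted p = 0.014). MTC and MTD, the most abundant rows of that family, had log2 fold changes of 0.13 ± 0.10 and 0.11 ± 0.10. Over all LTR rows, 12 of 134 tested internal parts were called, 4 higher and 8 lower, and 7 of the 502 other LTR rows, 2 higher and 5 lower. The internal parts, with 2.99% higher and 5.97% lower, were thus close to the 2.83% and 4.64% of all features. With the block the counts were 8 higher and 13 lower for internal parts and 4 and 16 for the others. Of all features 4.88% were then higher and 7.38% lower. The internal parts were above these shares and the other LTR rows below them. The medians of the first fit were 0.09 for both.

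SINEs took 46.8% to 50.1% of repeat reads, and none of the 35 tested subfamilies was called in either fit. Their log2 fold changes lay in a narrow band, from -0.00 to 0.16, and 34 of 35 were above 0. B3, the most abundant repeat row, had 319963 and 324819 normalized counts in WT26 and 332688 and 373176 in *Mettl14* KO (log2 fold change 0.13 ± 0.10). RSINE1 and ID_B1 followed with 0.09 ± 0.11 and 0.07 ± 0.11 and overlapping groups. Such reads also come from SINE copies within introns and untranslated parts of genes, which are frequent in nuclear RNA. Of 191 tested DNA transposons, which are inactive relics in the mouse, none was called in either fit. Their most abundant rows, URR1A, URR1B and MER2, had log2 fold changes of 0.16, 0.13 and 0.13.

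Most repeats had log2 fold changes just above 0, without passing the test. The median log2 fold change was 0.11 over the 1085 tested repeats and 0.00 over the 19214 tested genes, and 72.7% of repeats and 50.5% of genes were above 0. Between single libraries the median of repeats ranged from 0.07 to 0.15. Between replicate 1 and 2 of one line the median of repeats differed by -0.08 in *Mettl14* KO and -0.11 in RBC. It differed less in WT26, by 0.002, and in *Mettl3* KO, by -0.025. At the same time repeats were less spread than genes: 73.5% of repeats and 42.7% of genes changed by less than 0.25 in size. Repeat rows hold more reads each on average than genes, and rows of equal abundance were not compared. The median was 0.13 for LINEs, 0.12 for SINEs, 0.15 for DNA transposons and 0.09 for LTR elements, and within the latter 0.05 for ERVK, 0.04 for ERV1, 0.13 for ERVL and 0.13 for ERVL-MaLR.

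**Figure D4:**
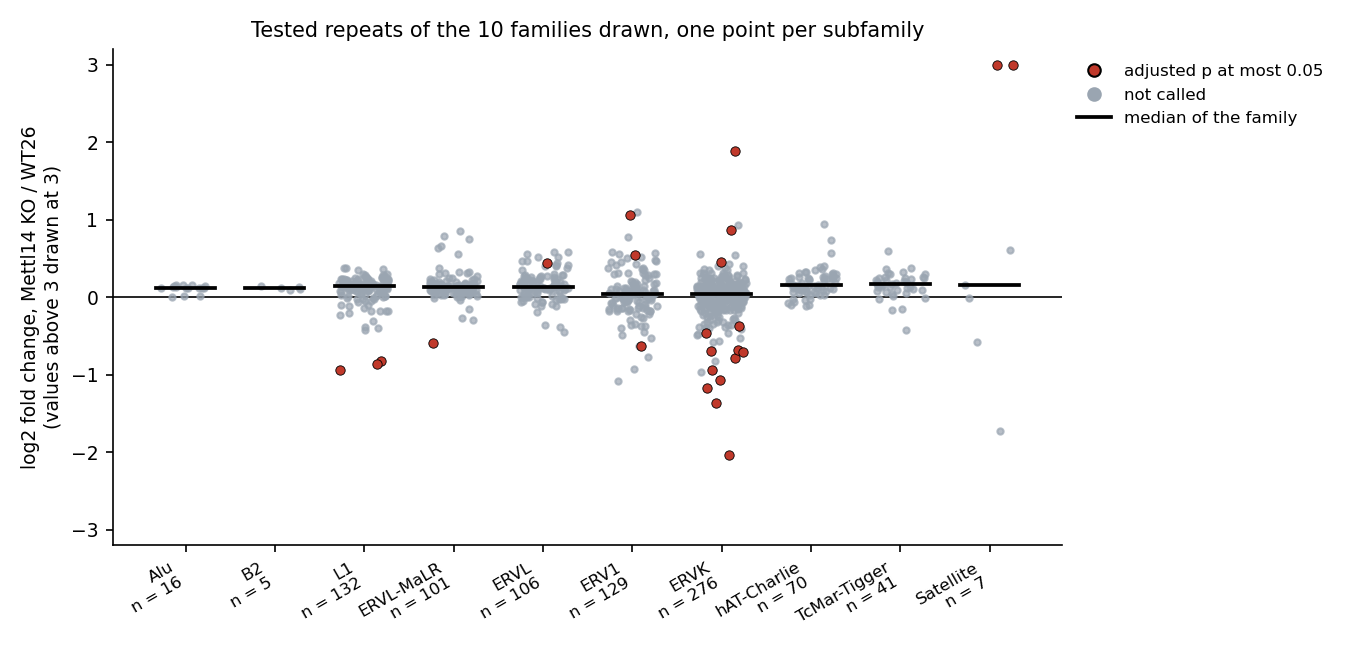
Log2 fold change of *Mettl14* KO over WT26 for the tested subfamilies of 10 repeat families, one point each, with the median as a bar and the called ones in red. MurSAT1 and SYNREP_MM, at 9.10 and 4.48, are drawn at 3. Most points lie just above 0, and the called ones are mainly in ERVK, 3 higher and 11 lower of 276.

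Summed over classes, no difference was called. LINE reads totalled 1298886 and 1316130 normalized counts in WT26 and 1294596 and 1320465 in *Mettl14* KO, and SINE reads 2671396 and 2811917 in WT26 and 2777849 and 3129638 in *Mettl14* KO. The log2 fold changes of the totals were 0.00 ± 0.27 for LINE, 0.11 ± 0.28 for SINE, 0.03 ± 0.25 for LTR, 0.15 ± 0.21 for DNA and -0.14 ± 0.21 for Satellite, with adjusted p from 0.74 to 1. Beside these totals 7.76% of genes and class totals were called, and 12.7% with the block, under which again no class was. Of the family totals 1 was called in either fit, C573_MM, where 7.81% of genes and family totals were called, and 12.6% with the block. Its family consists of that row alone, of class Other, with 5.17 and 8.68 normalized counts in WT26 and 60.9 and 37.6 in *Mettl14* KO. The 104 against 15 reads give a ratio of 8.45 with a 95% counting interval of 4.89 to 15.6, and the log2 fold change was 2.92 ± 0.48 (adjusted p = 0.0064). Without *Mettl14* KO replicate 1 or without WT26 replicate 1 its adjusted p rose to 0.090 and 0.088. In the small and uncertain classes (Unknown, DNA?, RC, RNA and the like) no other repeat was called in the first fit. With the block 2 of 17 tested rows of class DNA? were higher, Eulor12 and Eulor2C, where 4.88% of all features were. Eulor2C was sparse, with 4 and 1 reads in WT26. The most abundant rows of each of these classes had log2 fold changes between -0.18 and 0.42, the highest being the small nuclear RNA 7SK.

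The lines RBC and *Mettl3* KO give the change after loss of the other subunit, from libraries that share none with the comparison above. The 2 knockouts differed in their change for 9 repeats by the test of the difference itself: 7 were higher in *Mettl14* KO relative to its control (1.66% of all features) and 2 were lower (1.01% of all features). With the block there were 12 (3.89% of all features) and 7 (2.71% of all features). MurSAT1 changed by 9.10 in *Mettl14* KO and by -2.66 in *Mettl3* KO, a difference of 11.76 ± 0.63 on the log2 scale (adjusted p = 4.09e-06). SYNREP_MM changed by 4.48 and -1.17, a difference of 5.65 ± 0.74 (adjusted p = 0.0054). In neither satellite was *Mettl3* KO above its control.

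The other differences were smaller. C573_MM, MuRRS4-int, RLTR13C3, IAPEy-int and ETnERV-int had differences of 3.59, 0.77, 0.91, 1.22 and 0.70 (adjusted p = 0.036, 0.031, 0.027, 0.033 and 0.046). For IAPEy-int and ETnERV-int it was the fall in *Mettl3* KO, by 0.67 and by 0.60, that passed the test of a single knockout. ETnERV3-int and RLTR13B2 differed by -1.66 and -0.87 (adjusted p = 0.0032 and 0.031), and in both the WT26 libraries were the high ones. For L1Md_T and L1Md_Gf a difference between knockouts was not detected: they fell by 0.86 and 0.94 in *Mettl14* KO and by 0.72 and 0.86 in *Mettl3* KO, and the differences were -0.15 ± 0.15 and -0.08 ± 0.23. Over the 1085 repeats the changes in the knockouts had a Pearson r of -0.04 and a Spearman rho of 0.30, given as a description, since the rows share libraries and reads.

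**Figure D5:**
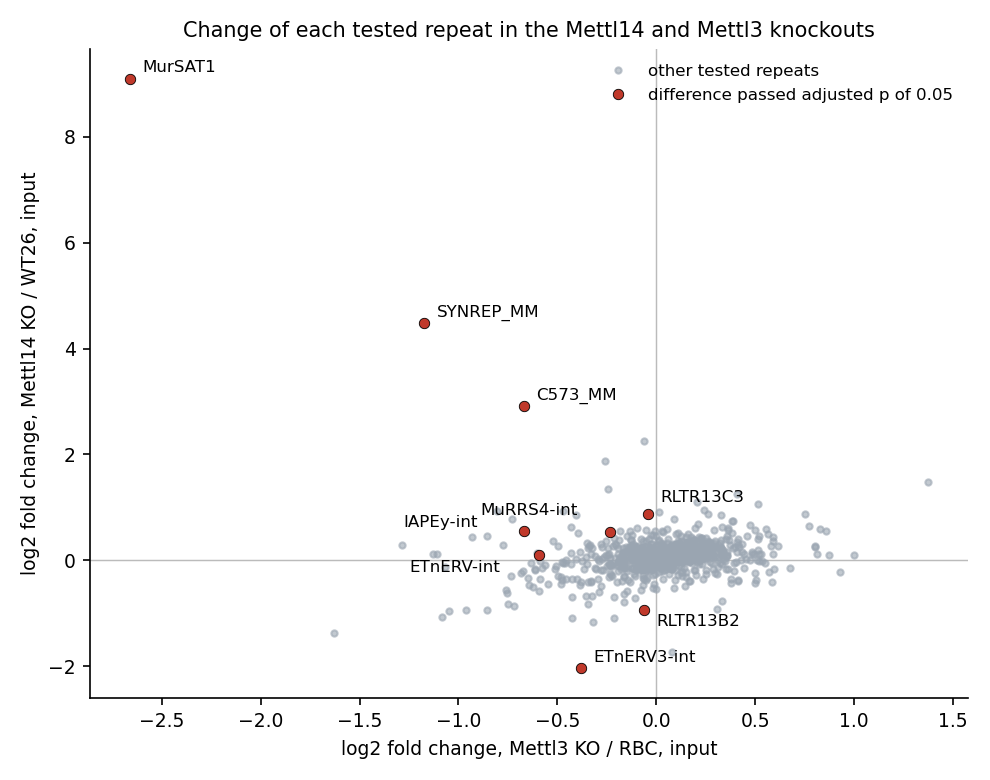
Log2 fold change of each of the 1085 tested repeats in *Mettl3* KO over RBC (x axis) and in *Mettl14* KO over WT26 (y axis), input RNA. Red points are the 9 repeats whose difference passed the test, with MurSAT1 at 9.10 and -2.66 and ETnERV3-int at -2.04 and -0.38.

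The m6A IP libraries of the same lines give these repeats as a level of precipitated RNA and not as an enrichment over input. Input and IP of a replicate were taken from the same RNA, so their signs are not independent. Without the block no feature was called between *Mettl14* KO and WT26 in the IP (edgeR, 0% of 21664 features, 1660 of them at an unadjusted p under 0.05), and DESeq2 called 222 features, 3 of them among the 25 repeats. With the replicate number as a block 7.45% of features were called, and 17 of the 25 repeats. The sign in the IP was that in the input for 24 of the 25, the exception being RMER16B2 (0.01 in the IP). MurSAT1 had 6.54 and 12.9 normalized counts in the WT26 IP and 1147 and 675 in the *Mettl14* KO IP (log2 fold change 6.58 ± 0.66, adjusted p = 0.051 unblocked and 1.67e-06 blocked). SYNREP_MM had 58.8 and 56.8 in the WT26 IP and 446 and 93.4 in the *Mettl14* KO IP (log2 fold change 2.23 ± 0.74). With the block its log2 fold change in the IP was 1.97 ± 0.38 (edgeR, adjusted p = 0.0050). Input and IP were scaled by separate size factors, so their levels are not compared. L1Md_T had 627444 and 1376607 in the WT26 IP and 306765 and 473484 in the *Mettl14* KO IP.

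Most genes that act on repeats did not pass the test. The list of 32 genes for repeat silencing also holds *Tet1* and *Tet2*, which act against DNA methylation. Of the 32 genes 5 were lower, *Tet2* among them, none was higher, and 13 were lower with the block. This stands beside the 4.64% and 7.38% of all features given above. The same shares, with 2.83% and 4.88% for higher, stand beside the counts of the lists that follow. *Setdb1* fell from 1782 and 1775 to 1100 and 1102 normalized counts (log2 fold change -0.69 ± 0.11, adjusted p = 0.0053). *Trim28*, its corepressor partner, had a log2 fold change of -0.50 ± 0.12, *Resf1*, which recruits SETDB1, of -0.88 ± 0.11, *Dnmt3l*, a cofactor of DNA methylation, of -2.04 ± 0.42, and *Tet2*, which oxidizes methylated cytosine, of -1.15 ± 0.20. Of 15 genes of RNA decay and small RNA 1 was lower, the retrotransposon-restricting helicase *Mov10* (log2 fold change -1.04 ± 0.14, adjusted p = 0.0027), and with the block *Exosc10* of the RNA exosome as well. Of 15 genes of the m6A machinery 2 were lower, the readers *Ythdf2* and *Ythdf3*, and *Mettl3* had a log2 fold change of 0.58 ± 0.16 (adjusted p = 0.0501 unblocked and 0.0124 blocked). IAPEz-int, which TRIM28 and SETDB1 are known to hold down, was at -0.00 in the same libraries. Other IAP internal parts went in both directions, such as IAPEy-int at 0.55 and IAPEY4_I-int at -0.70. The part of the silencing genes in the values of repeats was not tested. Marker lists of other cell types were low: of the primitive endoderm, mesoderm, neural, trophoblast and fibroblast lists, the single genes called were *Pax6*, higher, and *Kdr* and *Neurod1*, lower, and with the block *Dab2* and *Cubn* were higher and *Tubb3* was lower. The summed level of the primitive endoderm list was 89.2 to 283 in WT26 and 293 to 316 in *Mettl14* KO. Its 6 tested members had log2 fold changes above 0, with a median of 0.81, and none passed in the first fit. *Gata4* had 7.11 and 23.6 normalized counts in WT26 and 23.8 and 18.8 in *Mettl14* KO, *Gata6* had 7.11 and 34.7 in WT26 and 21.5 and 23.9 in *Mettl14* KO, and *Sox17* and *Foxa2* had no read in *Mettl14* KO. The part of this list in the values of repeats was not tested.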

How the data were processed

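The authors deposited raw counts per gene and per repeat subfamily for 8 input and 8 IP libraries, without normalization. Per the labels and the study's methods, reads were trimmed with cutadapt 1.8.1 and STAR 2.6.0c aligned them to GRCm38, keeping reads with as many as 100 positions. TEtranscripts shared such reads among copies when counting. Subfamilies of near-identical sequence may therefore exchange reads, and the strand setting of the counting is not given in the sources used here. Each replicate combined 3 MeRIP reactions. The authors' gene-only RNA-seq table was not used here.

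Counts were tested in R 4.3.3 with edgeR 4.0.16 (glmQLFit and glmQLFTest, filterByExpr) on the 8 input libraries in 4 groups. Median-of-ratios size factors of DESeq2 1.42.0 were computed on genes. The code was also run on simulated counts with the same spread for all features and no replicate effect. That setting is simpler than these data, so it does not show how many real changes were missed here. Per-library ratios used a pseudocount of 0.5. The 4 libraries compared held 9394163 to 22366463 reads. With 2 replicates a line, p-values rest on a spread estimated over all 4 lines and drawn towards that of other features. They do not measure the spread of a row's own replicates alone. Intervals of ratios cover counting error only. Same-numbered replicates, which the labels give, were paired by the data: the differences of replicate 1 and 2 correlated between all 6 pairs of lines, by 0.27 to 0.48 in the input and by 0.59 to 0.79 in the IP.

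Repeats are named when the study names them, when called (mean of at least 50 normalized counts for the 10 largest rises and falls, the sparser ones being named in addition), when among the 3 most abundant of a large class, when satellites, or as internal parts of known ERVs and L1Md rows. The abundant rows of the small classes are not named singly, and log2 fold changes of these lay between -0.18 and 0.42. Members, lists and rules were chosen with earlier results of these data known. Alternatives were DESeq2's Wald test, other scalings and filters, other sets of libraries, the replicate block and leaving out each library. The block and DESeq2 in the IP were added after seeing the data.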

Additional observations from a re-analysis of the deposited data

Results flagged for a closer look

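For 9 repeats the change in *Mettl14* KO against WT26 differed from that in *Mettl3* KO against RBC by the test of the difference (edgeR, adjusted p of at most 0.05). The differences on the log2 scale were 11.76 for MurSAT1, 5.65 for SYNREP_MM, 3.59 for C573_MM, 1.22 for IAPEy-int, 0.91 for RLTR13C3, 0.77 for MuRRS4-int, 0.70 for ETnERV-int, -0.87 for RLTR13B2 and -1.66 for ETnERV3-int. For ETnERV3-int the level in *Mettl14* KO, 1166 and 1115 normalized counts, was near that in RBC, 1062 and 1244, and WT26 was high, 5292 and 4103. Each knockout is 1 clone with its own control line, so clone and genotype cannot be told apart.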

How the results depend on the processing

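The number of calls changed with the set of libraries, the fit, the scaling, the filter and the fold limit. Against 9 higher and 16 lower repeats, the fit of all 16 libraries gave 2 and 1, the replicate block 19 and 36, and a fold limit 5 and 4. Gene calls fell too with all 16 libraries, to 28 higher and 66 lower from 566 and 925. DESeq2 gave 26 lower, no filter 29 and size factors from repeats 34. Leaving out single libraries gave 4 to 9 higher and 6 to 14 lower. For the difference between knockouts, 7 higher and 2 lower, these were 2 and 0 with all 16 libraries, 12 and 7 with the block, 2 to 6 and 1 without single libraries, and 4 and 3 higher with library sizes and with size factors from repeats. In the IP 17 of the 25 repeats were called with the block and 3 by DESeq2. The 1 family total called was not called (0) with all 16 libraries or with at least 10 counts in each library, and 0 to 1 without single libraries. The cause was not tested.

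The median of repeats was -0.00080 with size factors from repeats, and 0.065 to 0.145 without single libraries. Under these size factors the log2 fold change turned to -0.115 for the LINE total, -0.087 for LTR, -0.0095 for SINE, -0.011 for ETnERV-int, -0.046 for ID_B1, -0.096 for L1Md_F2, -0.074 for Lx8, -0.019 for MERVL_2A-int, -0.027 for MT2_Mm, -0.0080 for MTD and -0.031 for RSINE1. Values near 0 also turned elsewhere. The LINE total was -0.022 with library sizes, -0.011 with size factors from genes and repeats, -0.0043 in the fit of the 4 libraries, and -2.02e-05 with the block. IAPEz-int was 0.00018 with TMM, 0.0013 with all 16 libraries and 6.37e-05 with the block, MERVL-int 0.0011 with TMM and 0.0036 with all 16 libraries, L1Md_F2 -0.0014 with library sizes, and IAPEY5_I-int -0.137 with the block.

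Without single libraries the LINE total ranged from -0.014 to 0.016, the Satellite total from -0.319 to 0.030, ETnERV-int from -0.050 to 0.238, IAPEY5_I-int from -2.59 to 1.55, IAPEz-int from -0.079 to 0.069, ID_B1 from -0.032 to 0.171, L1Md_F2 from -0.025 to 0.052, L1Md_F3 from -0.087 to 0.076, L1VL1 from -0.014 to 0.278, MER2 from -0.0032 to 0.260, MERVL-int from -0.196 to 0.180, MT2_Mm from -0.022 to 0.199, RSINE1 from -0.030 to 0.197, SUBTEL_sa from -0.072 to 2.85 and ZP3AR from -0.068 to 0.033. SUBTEL_sa had 3 reads in WT26 replicate 2, and IAPEY5_I-int differed between replicates within each line. SYNREP_MM and ETnERV3-int kept their call in each alternative run, and MurSAT1 in each except the filter of at least 10 counts, which removed it. The replicate block lost none of the 25 calls.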
